A study of Mus musculus with 12 samples.

Results

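The 60 genes described here encode enzymes, and a transporter, that build glycosaminoglycans and sulfate them, in chondrocytes of the E15.5 mouse forelimb zeugopod (the ulna and radius). They were chosen by symbol from the 36186 rows of the RNA-Seq table. The choice took the rows named *Chst*, *Chsy*, *Papss*, *Xylt*, *B3gat*, *Ndst*, *Hs2st*, *Hs3st*, *Hs6st*, *Has*, *Csgalnact*, *Ext* or *Extl* with a number, and *Chpf*, *Chpf2*, *B4galt7*, *B3galt6*, *Ugdh*, *Dse*, *Ust*, *Slc26a2*, *Impad1*, *Sulf2* and *Glce*. *Has2os*, an antisense RNA of the *Has2* locus and not an enzyme, came in by its symbol. Expression is given as NRPKM, read density per kilobase of transcript scaled to sequencing depth (RPKM) and normalized further by the authors, so that levels of different genes can be compared per length. A gene was tested where 3 or more of the 12 libraries reached 5 NRPKM, which 43 of the 60 genes and 10936 of all rows did.

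The libraries came from resting, proliferative and hypertrophic chondrocytes of WT embryos and from undifferentiated chondrocytes of *aadd* mutants, with 3 libraries each, all on a mixed 129/CD-1 background. *aadd* embryos are homozygous for frameshift mutations in the first exons of *Hoxa9*, *Hoxa10*, *Hoxa11*, *Hoxd9*, *Hoxd10* and *Hoxd11*. The labels call the hypertrophic libraries hyperproliferative and give *aadd* the compartment name resting, the WT compartment against which *aadd* was compared here. In *aadd* all zeugopod chondrocytes were captured together, whereas WT zeugopods were divided into compartments. Cells were taken by laser capture microdissection and were mostly chondrocytes with some perichondrium, and how many embryos entered a library is not given in the sources used here, so *P* values measure the spread between these libraries. In bulk libraries such as these, fewer cells of a type and less RNA per cell cannot be told apart.

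Glycosaminoglycans are long sugar chains, and cartilage is built around chondroitin sulfate, whose dense negative charge holds water in the matrix of aggrecan. A xylose-primed linkage on a core protein is extended either as chondroitin, which may be epimerized to dermatan, or as heparan, and sulfotransferases then place sulfate from the donor PAPS at set positions of the chain. Hyaluronan is made at the plasma membrane without a core protein or sulfate, and heparan sulfate at the cell surface binds growth factors such as FGFs, hedgehogs and BMPs.

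Library facts that bear on these genes are as follows. Depth, read from the value of 1 read in short receptor and keratin-associated genes, was 1890000 to 3240000 reads, and 1 read on 1 kb was worth 0.309 to 0.530 NRPKM. Hypertrophic replicate 1 stood apart from its group. Its root mean square log2 distance was 1.11 and 1.04 from replicates 2 and 3, which lay 0.613 from each other, against 0.588 to 0.861 within the other groups. Summed cartilage matrix markers (10 of 11 listed genes found) were 3126 NRPKM in hypertrophic replicate 1 but 693 and 995 in replicates 2 and 3, against 2811 to 4075 in resting, 3155 to 5226 in proliferative and 2589 to 3191 in *aadd*. Hypertrophic markers (10 of 10) were 1808, 3567 and 3907 in the hypertrophic libraries, 97.9 to 124 in resting, 681 to 956 in proliferative and 66.7 to 92.1 in *aadd*. Members of this list differed in direction between hypertrophic replicates 1, 2 and 3. *Spp1* (24.1, 1083 and 979 NRPKM), *Mmp13* (3.05, 735 and 661), *Ibsp* (718, 968 and 1331), *Vegfa* and *Alpl* were lowest in replicate 1. *Col10a1* (264, 166 and 221), *Ihh* (56.3, 9.54 and 15.3), *Panx3* (344, 235 and 221) and *Runx2* (135, 102 and 115) were highest there, and *Sp7* lay in between. Osteoclast markers (10 of 10) were 53.7, 1283 and 943 in the hypertrophic libraries and at most 36 elsewhere, with *Dcstamp* and *Ocstamp* at 0 in all *aadd* libraries. Macrophage markers (10 of 11) were 27.8, 377 and 296 against at most 58.4. Most of that sum came from *Cd68* (18.2, 174 and 160 NRPKM), *Fcer1g* (3.50, 91.3 and 67.2), *Csf1r* (2.08, 56.7 and 49.6) and *Lyz2* (0, 37.1 and 10.5). *Aif1*, *C1qa*, *C1qb*, *C1qc*, *Emr1* and *Mrc1* had their highest values outside the hypertrophic group, and *C1qa* was at 0 in all proliferative libraries. Endothelial markers (10 of 10) were 24.5, 324 and 227 against at most 59.9, with *Cldn5* at 0 in all proliferative libraries. Osteoblast markers (10 of 10) were 1657, 2545 and 3762 in the hypertrophic libraries, 285 to 543 in resting, 550 to 1319 in proliferative and 226 to 634 in *aadd*. *Alpl*, *Ibsp*, *Runx2* and *Sp7* are on this list and on the hypertrophic one, so these sums are not separate evidence. *Bglap2* was at 0 in the other groups and in hypertrophic replicate 1. *Bglap*, at 1.40, 1.98 and 3.54 NRPKM in hypertrophic libraries, overlapped resting libraries, where it reached 1.63. Hypertrophic replicates 2 and 3 thus differed from replicate 1 in these marker sums as well as in many of the genes below. The part that the other cell types play in the hypertrophic values was not tested. The 6 mutated genes were listed at 5.17 to 52.1 NRPKM in *aadd* and at 4.34 to 30.5 in WT resting. *Hoxd9*, *Hoxd10* and *Hoxd11* were higher in *aadd* (22.5 to 29.6, 39.6 to 52.1 and 25.1 to 35.4) than in resting libraries (5.59 to 8.79, 12.2 to 23.3 and 4.34 to 7.31). *Hoxa11* was lower (5.17 to 11.1 against 11.3 to 30.5), and *Hoxa9* and *Hoxa10* overlapped. Since a frameshift leaves a transcript, their level does not check the genotype.

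Promoters are printed for 5 genes on which the results turn, namely *Chst3* and *Chst15*, which moved in opposite directions from resting to proliferative cells, *Chst13*, which was listed at 0 in resting cells, and the paralogs *Hs3st3a1* and *Hs3st3b1*, which were both higher in *aadd*. Each is the 250 bases before the annotated start, 5′ to 3′ on the gene's strand, from RefSeq on GRCm38.p6, the build that the mm10 coordinates of the table share. They lie at chr10:60219261-60219510 on the minus strand, chr7:132317229-132317478 minus, chr6:90325186-90325435 minus, chr11:64435082-64435331 plus and chr11:63922285-63922534 minus. For *Chst15* the table holds 2 starts, and the one nearer to the row's end, 73 bp from it, was used.
Chst3: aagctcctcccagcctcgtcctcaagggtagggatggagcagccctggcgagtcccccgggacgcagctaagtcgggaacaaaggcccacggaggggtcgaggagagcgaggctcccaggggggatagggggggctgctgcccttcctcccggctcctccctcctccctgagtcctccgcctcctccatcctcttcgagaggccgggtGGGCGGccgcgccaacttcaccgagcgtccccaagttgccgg
Chst15: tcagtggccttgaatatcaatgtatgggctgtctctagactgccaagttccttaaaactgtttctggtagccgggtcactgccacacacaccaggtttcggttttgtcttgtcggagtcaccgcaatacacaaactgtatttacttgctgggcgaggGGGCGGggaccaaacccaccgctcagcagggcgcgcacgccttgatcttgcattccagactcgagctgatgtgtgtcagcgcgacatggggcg
Chst13: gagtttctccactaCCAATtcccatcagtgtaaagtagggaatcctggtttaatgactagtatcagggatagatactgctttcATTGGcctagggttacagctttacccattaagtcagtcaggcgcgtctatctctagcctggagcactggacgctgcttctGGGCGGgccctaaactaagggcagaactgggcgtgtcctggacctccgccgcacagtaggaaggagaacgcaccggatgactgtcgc
Hs3st3a1: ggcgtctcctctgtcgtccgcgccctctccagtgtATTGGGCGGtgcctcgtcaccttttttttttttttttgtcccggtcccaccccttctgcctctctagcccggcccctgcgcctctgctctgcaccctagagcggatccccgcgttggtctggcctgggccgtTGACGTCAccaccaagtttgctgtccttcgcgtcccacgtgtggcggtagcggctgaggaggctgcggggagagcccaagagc
Hs3st3b1: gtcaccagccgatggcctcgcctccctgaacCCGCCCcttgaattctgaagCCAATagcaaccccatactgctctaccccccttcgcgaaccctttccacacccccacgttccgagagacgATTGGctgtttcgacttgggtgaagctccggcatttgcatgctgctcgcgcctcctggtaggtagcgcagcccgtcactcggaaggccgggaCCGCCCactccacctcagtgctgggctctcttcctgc
Capitals mark matches, on either strand, to 8 motifs: the RUNX core TGTGGT, the SOX core AACAAT, an AP-1 site TGANTCA, a posterior HOX core TTTATG, the TATA box TATAAA, the CCAAT box CCAAT, the GC box GGGCGG and the cAMP response element TGACGTCA. *Chst3* and *Chst15* each held a lone GC box, 42 and 93 bases before the start. *Chst13* held a pair of CCAAT boxes and a GC box. *Hs3st3a1* held a CCAAT box that overlaps a GC box and a cAMP response element 83 bases before the start, and *Hs3st3b1* a pair of each of the CCAAT and GC boxes. The RUNX, SOX, AP-1, HOX and TATA letters were in none of the 5 windows, which says only that these letters are not there. Over all 32851 promoters in the table, 33.8% held the CCAAT box, 32.7% the GC box and 1.55% the cAMP response element, and 14.0%, 9.42%, 6.75%, 10.8% and 12.4% held the RUNX, SOX, AP-1, HOX and TATA letters. Of the 60 genes, 45 had an entry, with 54 promoters between them, of which 23 held a CCAAT box, 31 a GC box and 4 the cAMP response element, and 3, 3, 2, 3 and 2 held the RUNX, SOX, AP-1, HOX and TATA letters.

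Counts of genes that changed were as follows, and the words rose and fell are kept for genes that passed these criteria, an unadjusted *P* up to 0.05 in limma with a fold change of at least 2 between WT compartments or 1.5 between *aadd* and WT resting. From resting to proliferative cells 5 of the 43 genes passed, 4 higher and 1 lower, against 5.53% of all genes tested, 2.56% higher and 2.97% lower. From proliferative to hypertrophic cells 10 passed, 2 higher and 8 lower, against 9.67% of all genes, 5.32% higher and 4.34% lower. Between resting and hypertrophic cells 13 passed, 2 higher and 11 lower in the hypertrophic group, against 13% of all genes, 5.84% higher and 7.2% lower. In *aadd*, 11 passed against WT resting, 4 higher and 7 lower, where 6.56% of all genes passed, 3.78% higher and 2.78% lower. Groups did not overlap for 19, 18, 22 and 16 of the 43 genes in these comparisons, against 24%, 24.2%, 32% and 15.4% of all genes. Of these, 10, 6, 7 and 7 were higher, against 9.83%, 13.3%, 14.1% and 8.08%, and 9, 12, 15 and 9 lower, against 14.2%, 10.9%, 17.8% and 7.34%. These comparisons share libraries, WT resting in 3 of them, so each is given by its own values. Median log2 fold changes of the 43 genes, with those of all genes tested in the same order, were -0.11 and -0.06 from resting to proliferative, -0.37 and 0.04 from proliferative to hypertrophic, -0.42 and -0.02 from resting to hypertrophic, and -0.09 and 0.01 from resting to *aadd*. After Benjamini-Hochberg adjustment over all genes in limma, 2, 0, 4 and 0 of the 43 genes had an adjusted *P* under 0.05 in these comparisons, against 0.622%, 0%, 6.36% and 0.119% of all genes, and 17, 16, 20 and 14 had an unadjusted *P* up to 0.05, against 17.1%, 19.3%, 26.4% and 9.58%. With any single library left out the 2 genes became 0, the 4 genes became 1 or 2 but 24 without hypertrophic replicate 1, and the 0 from proliferative to hypertrophic became 20 without that library. Of all genes, 24.2% and 17.4% had an adjusted *P* under 0.05 in those fits without hypertrophic replicate 1. Counts by the criteria in the hypertrophic group also turned on replicate 1. Without it 21 and 20 genes passed against proliferative and resting cells, where 18.4% and 19.2% of all genes did. Replicate 1 alone gave 3 and 3, against 4.54% and 11.5% of all genes. Without hypertrophic replicate 2 or 3 the same counts were 6 and 5 against proliferative and 6 and 6 against resting cells, where 6.45%, 6.02%, 11.1% and 10.9% of all genes passed. Without proliferative replicate 2 the count against proliferative cells was 6, and without resting replicate 1 or 3 that against resting cells was 7 and 8, against 6.91%, 13.5% and 11.4% of all genes. Between resting and proliferative cells 2 genes passed without resting replicate 2, and the *aadd* count was 7 without resting replicate 2 or *aadd* replicate 3, against 4.65%, 5.44% and 5% of all genes.

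**Figure D1:**
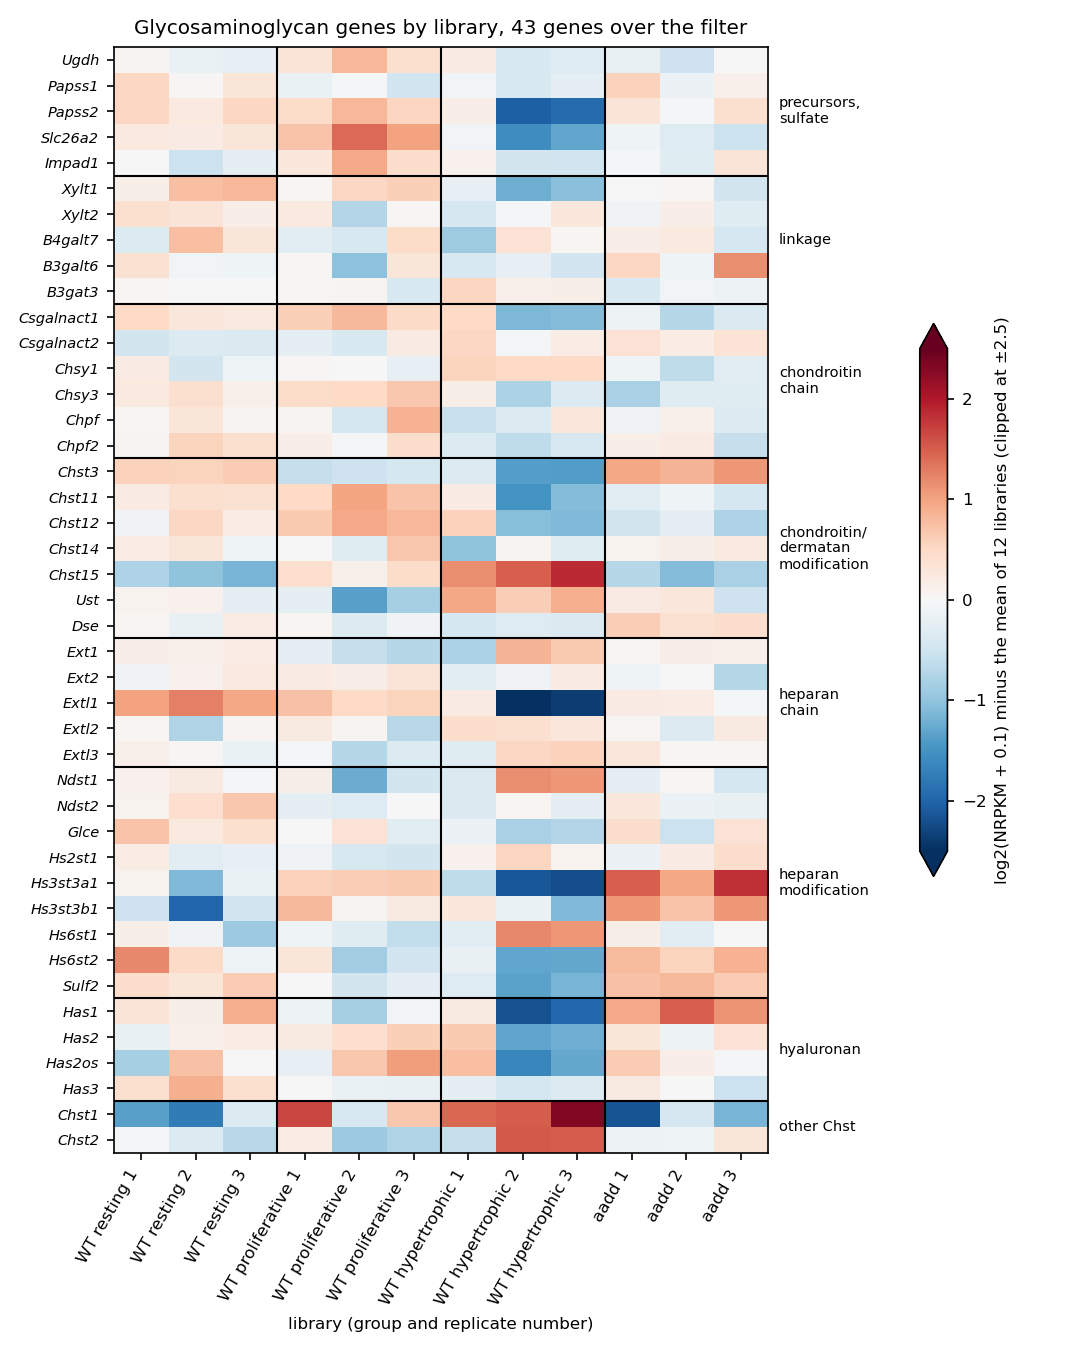
Heat map of the 43 genes over the filter (rows, ordered by role) in the 12 libraries (columns, 3 per group). Colour gives log2(NRPKM + 0.1) minus the gene's mean over the libraries, red above and blue below, clipped at the ends of the scale. *Chst15* is blue in resting and *aadd* and red in hypertrophic libraries, *Papss2*, *Slc26a2* and *Extl1* are blue mainly in hypertrophic replicates 2 and 3, and *Hs3st3a1* and *Hs3st3b1* are red in *aadd*.

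Enzymes of precursor supply were among the most abundant of the set in resting cells. *Papss2*, the PAPS synthase whose loss shortens the skeleton of brachymorphic mice, had the highest resting mean, 258 ± 27.8 NRPKM (SD, n = 3), and *Ugdh*, which makes UDP-glucuronic acid, had 90.8 ± 9.85. *Slc26a2*, the sulfate transporter mutated in diastrophic dysplasia, had 65.5 ± 2.14, *Impad1*, the Golgi phosphatase that clears spent donor, 46.0 ± 8.48, and *Papss1*, the other PAPS synthase, 36.9 ± 6.15. Of these 5 genes none passed from resting to proliferative, 2 fell from proliferative to hypertrophic and from resting to hypertrophic, and none passed in *aadd*. Among all genes tested 4.34% and 7.2% fell in those hypertrophic comparisons.

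*Slc26a2* (chr18:61196854-61211596, mm10) was at 65.4, 63.3 and 67.6 NRPKM in WT resting, 89.9, 146 and 111 in WT proliferative, 52.8, 18.8 and 22.5 in WT hypertrophic and 51.1, 44.2 and 37.8 in *aadd*. Every proliferative library lay above every resting one, and every hypertrophic and *aadd* library below. From proliferative to hypertrophic cells *Slc26a2* fell by 2.01 on the log2 scale (SE 0.43, limma's Benjamini-Hochberg adjusted *P* = 0.134), and it passed without any single library and with hypertrophic replicate 1 alone, whose log2 fold change was -1.10. Against resting cells it fell by 1.21 on the log2 scale (SE 0.39, limma's Benjamini-Hochberg adjusted *P* = 0.116), a call lost without WT resting replicates 1 or 3 or WT hypertrophic replicates 2 or 3 (log2 fold changes of -1.21 to -0.92). Its difference from resting to proliferative, 0.79, and in *aadd*, -0.57, had limma *P* of 0.00815 and 0.0124 but not the fold change that the criteria ask for.

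*Papss2* (chr19:32595715-32667187) was at 275, 226 and 273 NRPKM in WT resting, 262, 341 and 278 in WT proliferative, 214, 46.5 and 50.7 in WT hypertrophic and 238, 187 and 251 in *aadd*. Hypertrophic replicates 2 and 3 were far below every other library, while replicate 1 lay just under the lowest resting library and within the range of *aadd*. *Papss2* fell from proliferative to hypertrophic cells by 1.87 on the log2 scale (SE 0.60, limma's Benjamini-Hochberg adjusted *P* = 0.197), lost without WT proliferative replicate 2 or WT hypertrophic replicates 2 or 3 (log2 fold changes of -1.76, -1.49 and -1.55), and with replicate 1 alone the log2 fold change was -0.45. From resting to hypertrophic cells it fell by 1.69 on the log2 scale (SE 0.59, limma's Benjamini-Hochberg adjusted *P* = 0.135), lost without WT resting replicates 1, 2 or 3 or WT hypertrophic replicates 2 or 3 (log2 fold changes of -1.78 to -1.30). The ratio of *Papss2* to *Papss1* was 6.43, 7.41 and 7.34 in resting, 9.86, 11.8 and 13.0 in proliferative, 7.52, 2.02 and 1.97 in hypertrophic and 5.37, 6.95 and 7.73 in *aadd* libraries. It was higher in every proliferative than in every resting library, and hypertrophic replicates 2 and 3 had the lowest ratios of the 12. *Papss1* itself was at 42.8, 30.5 and 37.2 NRPKM in resting and 26.6, 28.9 and 21.4 in proliferative libraries, a log2 fold change of -0.52 (SE 0.20) that did not reach the criteria.

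*Ugdh* and *Impad1* were higher in every proliferative than in every resting library. *Ugdh* was at 102, 86.5 and 83.8 NRPKM in resting and 122, 173 and 128 in proliferative libraries, a log2 fold change of 0.62 (SE 0.20). *Impad1* was at 54.2, 37.3 and 46.6 and 65.0, 104 and 73.3 in the same groups, a log2 fold change of 0.80 (SE 0.25). Both had a limma *P* under the limit, 0.0177 and 0.015, with less than the fold change required. In hypertrophic and *aadd* libraries *Ugdh* spanned 74.5 to 112 and 67.5 to 96.1 NRPKM and *Impad1* 38.5 to 58.2 and 44.0 to 67.8.

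**Figure D2:**
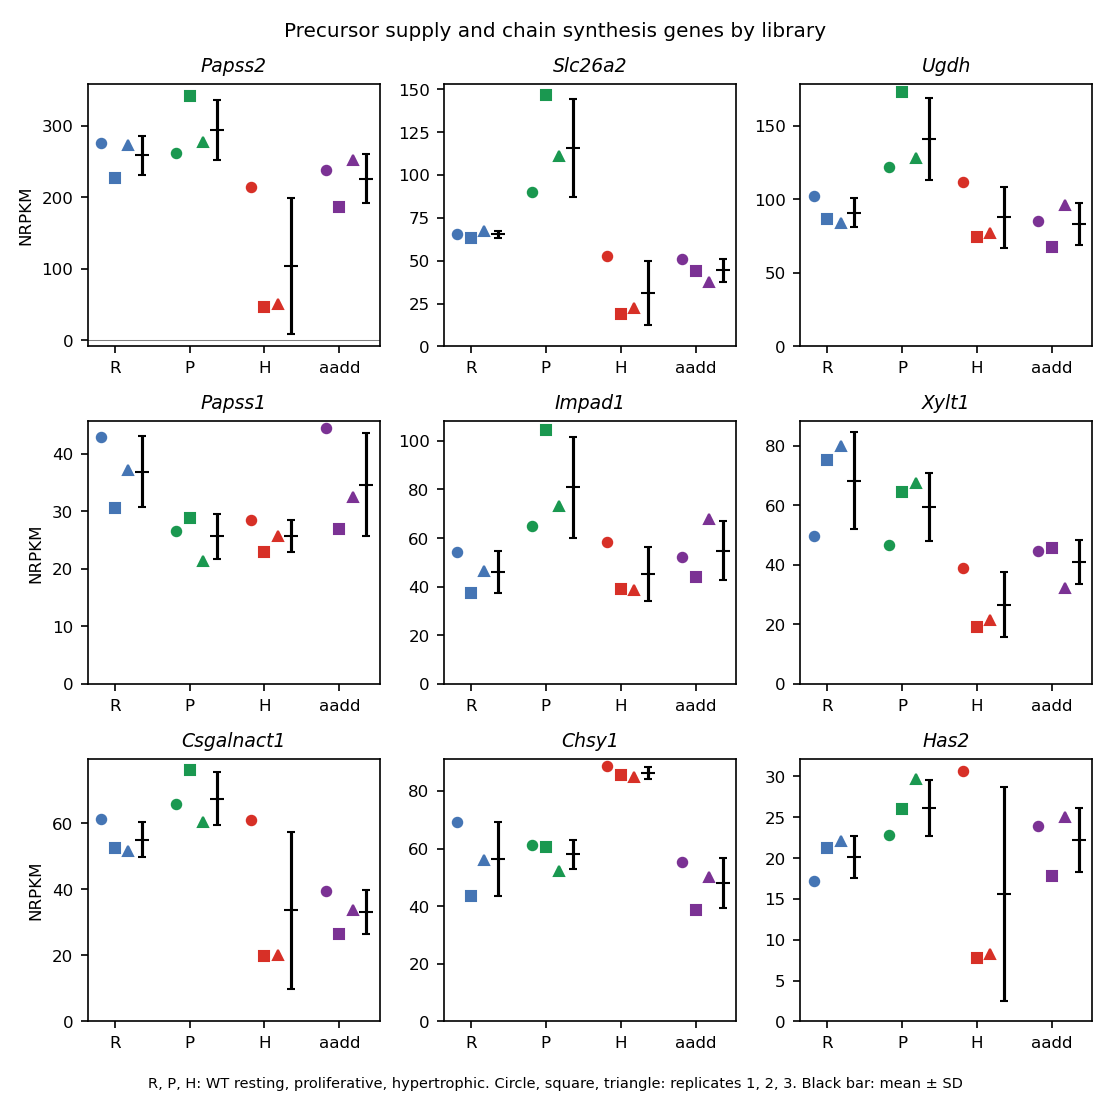
NRPKM of 9 genes of precursor supply, chain synthesis and hyaluronan synthesis in each library (R, P and H for WT resting, proliferative and hypertrophic, and *aadd*). Circles, squares and triangles are replicates 1, 2 and 3, black bars the mean ± SD (n = 3). *Papss2*, *Csgalnact1* and *Has2* show hypertrophic replicate 1 at 214, 61.0 and 30.7 NRPKM with replicates 2 and 3 far below, while *Chsy1* has all hypertrophic libraries at 84.7 to 88.6 NRPKM, above the rest.

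The linkage region joins chondroitin, dermatan and heparan chains to their core proteins. Of its 5 genes over the filter, *Xylt1*, which adds the priming xylose, changed and the others did not pass in any pairwise comparison. *Xylt1* (chr7:117380979-117667630) was at 49.6, 75.4 and 80.1 NRPKM in WT resting, 46.6, 64.4 and 67.6 in WT proliferative, 39.1, 19.2 and 21.5 in WT hypertrophic and 44.6, 45.8 and 32.4 in *aadd*. All hypertrophic and all *aadd* libraries lay below all resting libraries, whose lowest value was 49.6, and resting and proliferative libraries overlapped. *Xylt1* fell by 1.22 on the log2 scale (SE 0.32, limma's Benjamini-Hochberg adjusted *P* = 0.168) from proliferative to hypertrophic cells and by 1.40 on the log2 scale (SE 0.34, limma's Benjamini-Hochberg adjusted *P* = 0.0635) from resting to hypertrophic cells. In both it passed without any single library but not with hypertrophic replicate 1 alone, where the log2 fold changes were -0.59 and -0.78. In *aadd* it fell by 0.73 on the log2 scale (SE 0.25, limma's Benjamini-Hochberg adjusted *P* = 0.411), and that call was lost without WT resting replicates 2 or 3 or *aadd* replicate 3 (log2 fold changes of -0.64, -0.60 and -0.57). *Xylt2*, its paralog, had group means of 7.21 to 9.48 NRPKM. Galactosyltransferases *B4galt7* and *B3galt6* spanned 6.86 to 21.6 and 1.95 to 9.35 NRPKM over the libraries. *B3gat3*, which adds the closing glucuronic acid, spanned 12 to 22.7 NRPKM. *B3gat1* and *B3gat2* failed the filter, with highest values of 5.24 and 3.82 NRPKM.

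Chondroitin chain synthesis starts with *Csgalnact1* and *Csgalnact2*, which add the sugar that commits a linkage to chondroitin, and goes on with the polymerizing enzymes *Chsy1*, *Chsy3*, *Chpf* and *Chpf2*. None of the 6 passed from resting to proliferative cells, *Csgalnact1* fell from proliferative to hypertrophic cells, and in *aadd* *Csgalnact1* and *Chsy3* fell while *Csgalnact2* rose. Among all genes tested 4.34% fell from proliferative to hypertrophic cells, and in *aadd* 2.78% fell and 3.78% rose.

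*Csgalnact1* (chr8:68356781-68735146), whose position overlaps the row *1700125H03Rik*, was at 61.3, 52.4 and 51.4 NRPKM in WT resting, 65.6, 76.1 and 60.4 in WT proliferative, 61.0, 19.7 and 20.2 in WT hypertrophic and 39.6, 26.3 and 33.7 in *aadd*. Hypertrophic replicate 1 lay within the proliferative range and replicates 2 and 3 below every other library. From proliferative to hypertrophic cells it fell by 1.21 on the log2 scale (SE 0.46, limma's Benjamini-Hochberg adjusted *P* = 0.242), and this was lost without WT proliferative replicates 1, 2 or 3 or WT hypertrophic replicates 2 or 3 (log2 fold changes of -1.28 to -0.93) or with no filter. With replicate 1 alone the log2 fold change was -0.14. In *aadd* every library lay below every resting library, and *Csgalnact1* fell by 0.74 on the log2 scale (SE 0.20, limma's Benjamini-Hochberg adjusted *P* = 0.317), lost in a fit of all 12 libraries. *Csgalnact2* (chr6:118107452-118139140) was at 6.18, 6.78 and 6.68 NRPKM in WT resting, 7.28, 6.55 and 9.93 in WT proliferative, 12.3, 8.31 and 9.81 in WT hypertrophic and 11.0, 9.69 and 10.9 in *aadd*. Resting libraries all lay below *aadd* libraries and, except for proliferative replicate 2, below the other WT libraries. *Csgalnact2* rose in *aadd* by 0.68 on the log2 scale (SE 0.15, limma's Benjamini-Hochberg adjusted *P* = 0.232) and passed under every alternative run. Levels of the pair thus moved in opposite directions in *aadd*, but *Csgalnact1* remained the more abundant in each library.

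*Chsy3* (chr18:59175340-59516738) was at 10.7, 11.9 and 9.75 NRPKM in WT resting, 12.3, 12.8 and 14.3 in WT proliferative, 9.93, 5.15 and 7.07 in WT hypertrophic and 5.10, 7.29 and 7.24 in *aadd*. *aadd* and resting libraries did not overlap, and *Chsy3* fell in *aadd* by 0.72 on the log2 scale (SE 0.20, limma's Benjamini-Hochberg adjusted *P* = 0.327), lost without *aadd* replicate 1 (log2 fold change of -0.56). *Chsy1*, the most abundant polymerizing enzyme, was at 69.3, 43.6 and 56.0 NRPKM in resting, 61.3, 60.5 and 52.3 in proliferative, 88.6, 85.5 and 84.7 in hypertrophic and 55.5, 38.6 and 50.2 in *aadd* libraries. All hypertrophic libraries, replicate 1 included, lay above all others, at log2 fold changes of 0.57 (SE 0.16) from proliferative and 0.64 (SE 0.21) from resting cells, under the fold change required. *Chpf* and *Chpf2* spanned 11.0 to 29.9 and 13.5 to 30.6 NRPKM, and *Chpf2* was lower in every hypertrophic than in every proliferative or resting library.

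Genes of chondroitin sulfation differed between the WT compartments in both directions. Chondroitin 6-O-sulfotransferase *Chst3*, whose human gene is mutated in a spondyloepiphyseal dysplasia, fell from resting to proliferative cells, and *Chst15*, which adds a further sulfate to 4-sulfated chondroitin to give chondroitin sulfate E, rose in each step from resting to hypertrophic cells. They were the genes among the 43 with an adjusted *P* under 0.05 from resting to proliferative. Of the 7 genes of this role over the filter, 1 rose and 1 fell from resting to proliferative, 2 rose and 2 fell from proliferative to hypertrophic, 1 rose and 2 fell from resting to hypertrophic, and 2 fell in *aadd*. Among all genes tested 2.56%, 5.32% and 5.84% rose and 2.97%, 4.34% and 7.2% fell in these WT comparisons, and 2.78% fell in *aadd*.

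*Chst3* (chr10:60181528-60219260) was at 17.3, 17.1 and 17.9 NRPKM in WT resting, 7.69, 8.04 and 8.55 in WT proliferative, 9.09, 4.42 and 4.34 in WT hypertrophic and 22.8, 20.8 and 24.7 in *aadd*. The resting libraries lay within 1 NRPKM of each other, all proliferative and hypertrophic libraries were below them, and all *aadd* libraries above. From resting to proliferative cells *Chst3* fell by 1.10 on the log2 scale (SE 0.14, limma's Benjamini-Hochberg adjusted *P* = 0.0366). With the replicate number as a block the adjusted *P* from limma was 0.0843 (Benjamini-Hochberg), and under the alternatives it lay between 0.0265 and 0.164. Between resting and hypertrophic cells it fell by 1.62 on the log2 scale (SE 0.31, limma's Benjamini-Hochberg adjusted *P* = 0.0368), and without hypertrophic replicate 1 the log2 fold change was -1.97. Hypertrophic replicate 1 alone gave -0.93, short of the fold change required. In *aadd* the log2 fold change was 0.38 with a 95% confidence interval of 0.02 to 0.74, under the fold change of 1.5 that the criteria ask for.

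*Chst15* (chr7:132236255-132317155, overlapping the rows *Gm10584* and *Gm19463*) was at 6.02, 5.09 and 4.52 NRPKM in WT resting, 13.9, 11.3 and 14.2 in WT proliferative, 23.3, 29.1 and 37.6 in WT hypertrophic and 6.27, 4.82 and 5.84 in *aadd*. The WT compartments did not overlap, resting being lowest and hypertrophic highest, and hypertrophic replicate 1 was the lowest of its group. *Chst15* rose by 1.32 on the log2 scale (SE 0.19, limma's Benjamini-Hochberg adjusted *P* = 0.0451) from resting to proliferative cells, with a blocked adjusted *P* of 0.085 in limma (Benjamini-Hochberg) and values between 0.0186 and 0.199 under the alternatives. It rose by 1.17 on the log2 scale (SE 0.23, limma's Benjamini-Hochberg adjusted *P* = 0.126) from proliferative to hypertrophic cells, lost without WT hypertrophic replicate 3 (log2 fold change of 0.99), or with hypertrophic replicate 1 alone (0.83). In hypertrophic against resting cells it rose by 2.48 on the log2 scale (SE 0.23, limma's Benjamini-Hochberg adjusted *P* = 0.00448) and passed under every alternative. *aadd* and resting libraries overlapped, with a log2 fold change of 0.11 and a 95% confidence interval of -0.33 to 0.56.

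*Chst11* and *Chst12* place sulfate at position 4 of chondroitin, and mice without *Chst11* have a severe chondrodysplasia. *Chst11* (chr10:82985497-83195891) was at 111, 127 and 126 NRPKM in WT resting, 135, 191 and 157 in WT proliferative, 111, 34.0 and 45.4 in WT hypertrophic and 79.8, 89.1 and 71.4 in *aadd*, the most abundant sulfotransferase of the set in every group mean. Proliferative libraries were above all resting libraries, *aadd* below, and hypertrophic replicate 1 stayed near the resting level while replicates 2 and 3 were the lowest of all. *Chst11* fell by 1.52 on the log2 scale (SE 0.45, limma's Benjamini-Hochberg adjusted *P* = 0.185) from proliferative to hypertrophic cells, and with replicate 1 alone the log2 fold change was -0.52, which did not pass. From resting to hypertrophic cells it fell by 1.13 on the log2 scale (SE 0.44, limma's Benjamini-Hochberg adjusted *P* = 0.167), lost without WT resting replicates 1, 2 or 3 or WT hypertrophic replicates 2 or 3 (log2 fold changes of -1.19 to -0.77) or with no filter or with the replicate block. In *aadd* it fell by 0.60 on the log2 scale (SE 0.16, limma's Benjamini-Hochberg adjusted *P* = 0.319), lost without WT resting replicates 2 or 3 or *aadd* replicate 3 (log2 fold changes of -0.57, -0.58 and -0.52) or after quantile normalization or in a fit of all 12 libraries. *Chst12* (chr5:140505609-140525238) was at 18.8, 28.6 and 22.8 NRPKM in WT resting, 31.6, 38.9 and 35.9 in WT proliferative, 29.9, 9.51 and 9.22 in WT hypertrophic and 14.5, 17.1 and 11.7 in *aadd*. Every proliferative library was above and every *aadd* library below all resting ones, and hypertrophic replicate 1 lay between the resting and proliferative ranges while replicates 2 and 3 were the lowest of all. From proliferative to hypertrophic cells *Chst12* fell by 1.35 on the log2 scale (SE 0.47, limma's Benjamini-Hochberg adjusted *P* = 0.217), lost without WT proliferative replicates 1, 2 or 3 or WT hypertrophic replicates 2 or 3 (log2 fold changes of -1.43 to -1.06), and replicate 1 alone gave -0.24. In *aadd* it fell by 0.69 on the log2 scale (SE 0.23, limma's Benjamini-Hochberg adjusted *P* = 0.387), lost without WT resting replicate 2 or *aadd* replicate 3 (log2 fold changes of -0.53 and -0.55) or in a fit of all 12 libraries.

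*Chst13*, another 4-O-sulfotransferase (chr6:90308351-90325185), failed the filter. It was at 0, 0 and 0 NRPKM in WT resting, 0.463, 0.317 and 0.321 in WT proliferative, 1.82, 3.55 and 5.07 in WT hypertrophic and 0.218, 0 and 0 in *aadd*. It was listed at 0 in all resting libraries, and every hypertrophic library was above every other library. Against the 0.693 NRPKM that 3 reads are worth in resting libraries, the hypertrophic mean of 3.48 NRPKM was at least 5.02-fold higher, a bound that covers counting error only and rests on an approximate transcript length. In a test with no filter on low values *Chst13* passed in all 3 WT comparisons (limma's Benjamini-Hochberg adjusted *P* of 0.0431 from resting to proliferative, 0.135 from proliferative to hypertrophic and 0.0151 from resting to hypertrophic), with fitted folds that depend on the pseudocount. The resting libraries, all at 0, have no spread in this test, so its *P* values against them depend on the floor too. Proliferative values were worth about 2, 1 and 1 reads, under the 0.868 NRPKM of 3 reads there. From resting to proliferative cells the test therefore cannot show a change. *Chst7*, the other 6-O-sulfotransferase of chondroitin, also failed the filter, with values of 0, 4.36 and 1.07 NRPKM in hypertrophic libraries and at most 0.48 elsewhere.

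The balance of 4-O- and 6-O-sulfotransferase transcripts was described by the summed NRPKM of *Chst11*, *Chst12* and *Chst13* over that of *Chst3* and *Chst7*. The ratio was 7.46, 9.10 and 8.30 in resting, 21.8, 28.6 and 21.4 in proliferative, 15.7, 5.36 and 11.0 in hypertrophic and 4.12, 5.09 and 3.34 in *aadd* libraries. All proliferative libraries were above, and all *aadd* libraries below, every resting library, and hypertrophic libraries spread over the resting range on both sides. The ratio of *Chst15* to *Chst11* was 0.0542, 0.0400 and 0.0358 in resting, 0.102, 0.0591 and 0.0904 in proliferative, 0.210, 0.854 and 0.828 in hypertrophic and 0.0786, 0.0541 and 0.0818 in *aadd* libraries. In hypertrophic replicates 2 and 3 *Chst15* thus came close to *Chst11*, and replicate 1 was between these and the proliferative libraries. No test was made of these ratios.

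*Ust*, the uronyl 2-O-sulfotransferase, was at 8.86, 9.07 and 7.17 NRPKM in WT resting, 7.03, 3.22 and 4.67 in WT proliferative, 16.5, 12.9 and 15.8 in WT hypertrophic and 9.70, 10.1 and 5.85 in *aadd*. All hypertrophic libraries lay above all others, and replicate 1 was the highest of them. *Ust* rose from proliferative to hypertrophic cells by 1.64 on the log2 scale (SE 0.31, limma's Benjamini-Hochberg adjusted *P* = 0.12), passed without any single library, and passed with replicate 1 alone at 1.78. Between resting and proliferative cells its log2 fold change was -0.80 (SE 0.30), and in *aadd* 0.00 with a 95% confidence interval of -0.59 to 0.59. *Dse*, which epimerizes chondroitin to dermatan, passed only the test over 4 groups and was at 12.5, 10.5 and 13.6 NRPKM in WT resting, 12.4, 9.47 and 11.3 in WT proliferative, 8.79, 9.54 and 9.31 in WT hypertrophic and 18.5, 15.7 and 16.2 in *aadd*. Its *aadd* libraries were above all WT libraries. The *aadd* difference from resting, 0.47 (SE 0.17) on the log2 scale, had a limma *P* of 0.03 and was under the fold change required. *Chst14*, the dermatan 4-O-sulfotransferase, spanned 8.82 to 28.4 NRPKM and did not pass in any comparison.

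**Figure D3:**
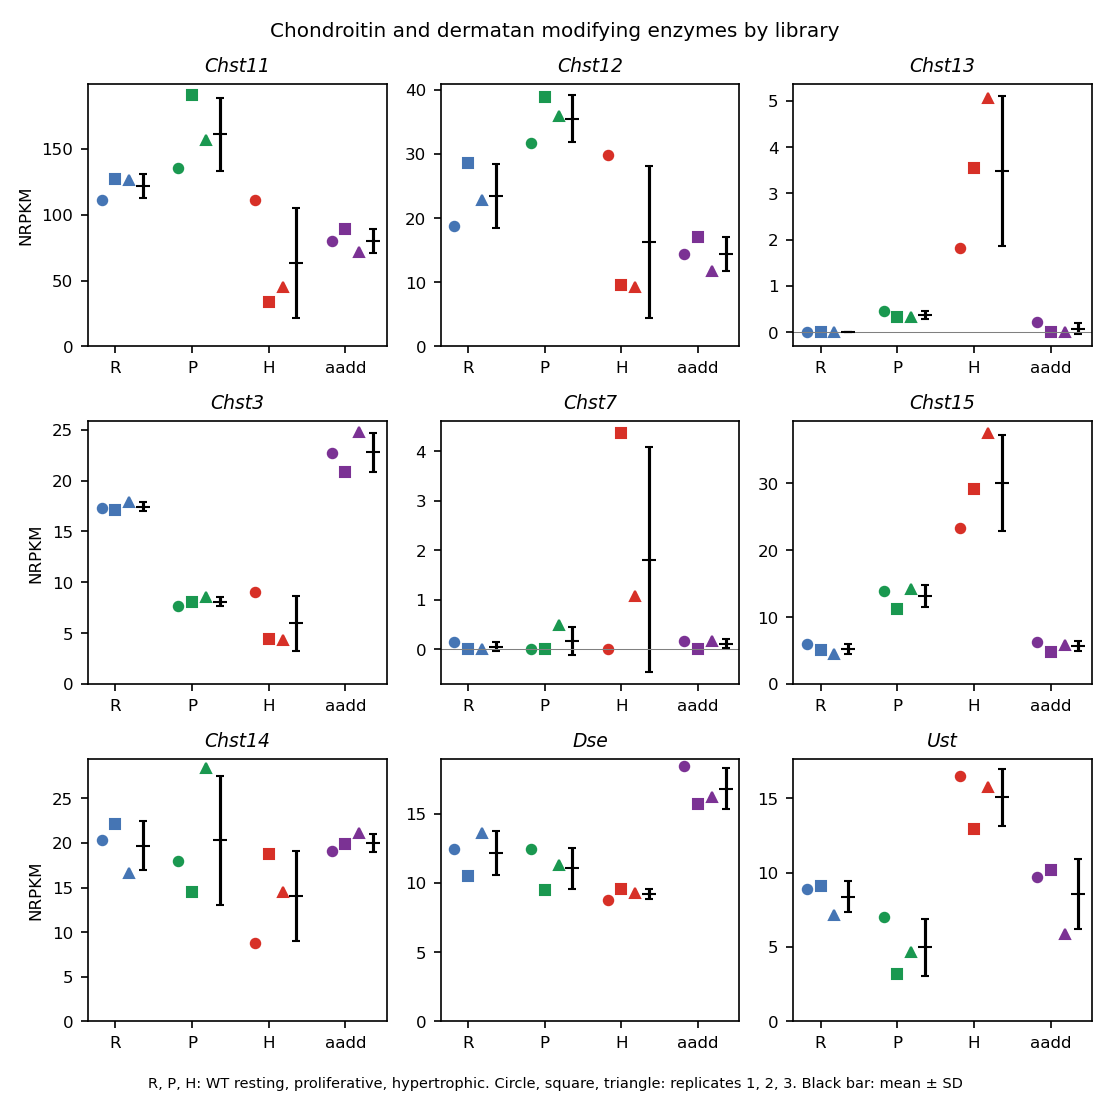
NRPKM of 9 chondroitin and dermatan modifying enzymes in each library (R, P and H for WT resting, proliferative and hypertrophic, and *aadd*). Circles, squares and triangles are replicates 1, 2 and 3, black bars the mean ± SD (n = 3). *Chst15* climbs from 4.52 to 6.02 in resting over 11.3 to 14.2 in proliferative to 23.3 to 37.6 NRPKM in hypertrophic libraries, *Chst3* is highest in *aadd*, and *Chst11* and *Chst12* drop in hypertrophic replicates 2 and 3.

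Heparan chains are polymerized by *Ext1* and *Ext2*, the genes of hereditary multiple exostoses, with *Extl1*, *Extl2* and *Extl3* as related transferases. *Extl1* was the gene of these 5 that changed. *Extl1* (chr4:134356373-134372547) was at 26.0, 31.0 and 25.5 NRPKM in WT resting, 21.7, 18.4 and 19.2 in WT proliferative, 15.0, 1.28 and 2.40 in WT hypertrophic and 15.0, 14.8 and 12.7 in *aadd*. Resting libraries were the highest, proliferative and *aadd* libraries lay below all of them, and hypertrophic replicates 2 and 3 were the lowest of all. *Extl1* fell by 2.41 on the log2 scale (SE 0.85, limma's Benjamini-Hochberg adjusted *P* = 0.218) from proliferative to hypertrophic cells, lost without WT proliferative replicates 1, 2 or 3 or WT hypertrophic replicates 2 or 3 (log2 fold changes of -2.46 to -1.69), and replicate 1 alone gave -0.39. Between resting and hypertrophic cells it fell by 2.88 on the log2 scale (SE 0.84, limma's Benjamini-Hochberg adjusted *P* = 0.0942). Without hypertrophic replicate 1 that log2 fold change was -3.89, and replicate 1 alone gave -0.87, under the fold change required. In *aadd* it fell by 0.95 on the log2 scale (SE 0.17, limma's Benjamini-Hochberg adjusted *P* = 0.158), lost in a fit of all 12 libraries.

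*Ext1* and *Ext2* behaved differently over the compartments without passing the criteria. *Ext1* was at 44.0, 42.6 and 44.4 NRPKM in resting, 33.4, 26.2 and 24.0 in proliferative, 22.5, 71.1 and 61.8 in hypertrophic and 40.7, 44.2 and 42.8 in *aadd* libraries. Proliferative libraries were all below resting ones, at a log2 fold change of -0.66 (SE 0.18) and a limma *P* of 0.00839. *Ext2*, which overlaps the rows *Alx4* and *Gm13818*, spanned 26.7 to 54.6 NRPKM. The ratio of *Ext1* to *Ext2* was 1.07, 0.908 and 0.852 in resting, 0.662, 0.534 and 0.440 in proliferative, 0.617, 1.74 and 1.22 in hypertrophic and 0.999, 1.01 and 1.60 in *aadd* libraries. It was lower in every proliferative than in every resting library. *Extl2* spanned 4.69 to 10.8 NRPKM and *Extl3*, which can start a heparan chain, 10.8 to 26.6.

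Heparan modification counts 17 genes, of which 9 passed the filter. Among these, both 3-O-sulfotransferases *Hs3st3a1* and *Hs3st3b1* rose from resting to proliferative cells and in *aadd*, *Hs3st3a1* fell from proliferative to hypertrophic cells, and 4 genes fell from resting to hypertrophic cells. In the same order of comparisons 2.56% and 3.78% of all genes tested rose and 4.34% and 7.2% fell. *Hs3st3a1* and *Hs3st3b1* share 416 exact windows of 50 bases, 10.7% of the *Hs3st3a1* and 8.6% of the *Hs3st3b1* transcript (GENCODE M21), where the authors' removal of reads with several alignments could lower both values.

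*Hs3st3a1* (chr11:64435332-64522835, overlapping *F930015N05Rik*) was at 9.14, 3.98 and 7.70 NRPKM in WT resting, 12.8, 13.2 and 13.6 in WT proliferative, 5.53, 1.90 and 1.78 in WT hypertrophic and 24.6, 16.8 and 30.9 in *aadd*. Its *aadd* libraries were above all WT libraries and its proliferative libraries above all resting ones. In *aadd* *Hs3st3a1* rose by 1.82 on the log2 scale (SE 0.36, limma's Benjamini-Hochberg adjusted *P* = 0.186) and passed under every alternative. From resting to proliferative cells it rose by 1.0 on the log2 scale (SE 0.31, limma's Benjamini-Hochberg adjusted *P* = 0.213), lost without WT resting replicate 2 or WT proliferative replicate 3 (log2 fold changes of 0.65 and 0.98) or with a pseudocount of 1. From proliferative to hypertrophic cells it fell by 2.27 on the log2 scale (SE 0.44, limma's Benjamini-Hochberg adjusted *P* = 0.122) and passed under every alternative, hypertrophic replicate 1 alone included (-1.24). In hypertrophic against resting cells, where the groups overlapped, it fell by 1.27 on the log2 scale (SE 0.52, limma's Benjamini-Hochberg adjusted *P* = 0.186), lost without WT resting replicates 1 or 3 or WT hypertrophic replicates 2 or 3 (log2 fold changes of -1.15 to -0.99) or with no filter or after quantile normalization. *Hs3st3b1* (chr11:63884693-63922284) was at 10.1, 3.61 and 10.4 NRPKM in WT resting, 25.6, 15.4 and 17.1 in WT proliferative, 17.7, 13.0 and 6.77 in WT hypertrophic and 31.3, 24.1 and 31.0 in *aadd*. Its *aadd* libraries lay above all resting and all hypertrophic libraries, and the lowest of them, 24.1, was below 1 proliferative library. In *aadd* *Hs3st3b1* rose by 1.96 on the log2 scale (SE 0.41, limma's Benjamini-Hochberg adjusted *P* = 0.212) and passed under every alternative. Between resting and proliferative cells it rose by 1.37 on the log2 scale (SE 0.45, limma's Benjamini-Hochberg adjusted *P* = 0.223), lost without WT resting replicate 2 or WT proliferative replicate 1 (log2 fold changes of 0.87 and 1.15). Resting replicate 2 was the lowest library of its group for both genes.

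*Sulf2*, an extracellular enzyme that removes 6-O-sulfate from heparan, was at 137, 124 and 156 NRPKM in WT resting, 99.8, 73.2 and 85.4 in WT proliferative, 80.6, 39.8 and 44.8 in WT hypertrophic and 168, 177 and 157 in *aadd*. The order from *aadd* and resting over proliferative to hypertrophic held for all libraries except hypertrophic replicate 1, which lay in the proliferative range, and all *aadd* libraries were above all resting ones. *Sulf2* fell from resting to hypertrophic cells by 1.40 on the log2 scale (SE 0.30, limma's Benjamini-Hochberg adjusted *P* = 0.0476). Without hypertrophic replicate 1 the log2 fold change was -1.71, and replicate 1 alone gave -0.78, under the fold change required. From resting to proliferative cells its log2 fold change was -0.70 (SE 0.19), with a limma *P* of 0.0083, and in *aadd* 0.27 (SE 0.16). *Glce*, the C5 epimerase of heparan, was at 36.2, 26.3 and 29.4 NRPKM in WT resting, 22.1, 28.6 and 18.5 in WT proliferative, 20.0, 12.5 and 13.2 in WT hypertrophic and 30.1, 15.2 and 28.5 in *aadd*. It fell from resting to hypertrophic cells, which did not overlap, by 1.02 on the log2 scale (SE 0.25, limma's Benjamini-Hochberg adjusted *P* = 0.0635), lost without WT resting replicate 1 or WT hypertrophic replicates 2 or 3 (log2 fold changes of -0.89, -0.90 and -0.93) or with a pseudocount of 1, or with replicate 1 alone (-0.60). *Hs6st2*, a 6-O-sulfotransferase, was at 13.1, 7.88 and 5.24 NRPKM in WT resting, 6.98, 3.04 and 4.01 in WT proliferative, 4.95, 2.25 and 2.25 in WT hypertrophic and 9.88, 8.40 and 10.4 in *aadd*. Its hypertrophic libraries lay below all resting and all *aadd* libraries, with replicates 2 and 3 the lowest of the 12. *Hs6st2* fell from resting to hypertrophic cells by 1.44 on the log2 scale (SE 0.44, limma's Benjamini-Hochberg adjusted *P* = 0.104), lost without WT hypertrophic replicates 2 or 3 (log2 fold changes of -1.26 and -1.26), or with replicate 1 alone (-0.71).

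Other heparan modifying genes set hypertrophic replicates 2 and 3 apart from replicate 1 in the opposite direction. *Ndst1*, an N-deacetylase and N-sulfotransferase, was at 15.0, 16.2 and 13.5 NRPKM in resting, 15.3, 5.77 and 9.97 in proliferative, 10.8, 31.0 and 29.4 in hypertrophic and 11.9, 14.3 and 10.2 in *aadd* libraries. *Hs6st1* was at 10.2, 8.62 and 4.84, 8.59, 7.45 and 5.98, 7.60, 21.2 and 19.5 and 10.2, 7.70 and 9.21 in the same order of groups. For both genes, as for *Ext1*, replicates 2 and 3 were the highest of the 12 libraries, while replicate 1 lay within the proliferative range for these genes and was the lowest of all for *Ext1*. These are the libraries with high osteoclast, macrophage and endothelial sums, and the part of those cells in the values was not tested. *Ndst2* was at 16.7, 21.2 and 25.4 NRPKM in resting and 13.2, 12.6 and 15.7 in proliferative libraries, a log2 fold change of -0.59 (SE 0.21) that did not reach the criteria. *Hs2st1*, the 2-O-sulfotransferase, spanned 13.8 to 27.4 NRPKM and did not pass in any comparison. The genes of this role under the filter had highest values of 1.04 (*Ndst3*), 0.590 (*Ndst4*), 1.83 (*Hs3st1*), 0.492 (*Hs3st2*), 7.31 (*Hs3st4*), 0.798 (*Hs3st5*), 9.79 (*Hs3st6*) and 1.92 NRPKM (*Hs6st3*). *Hs3st6* was at 0.516, 0 and 0 NRPKM in WT resting, 3.49, 3.19 and 1.61 in WT proliferative, 9.79, 2.79 and 3.78 in WT hypertrophic and 0, 0.347 and 0.532 in *aadd*, and its highest value was in hypertrophic replicate 1.

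**Figure D4:**
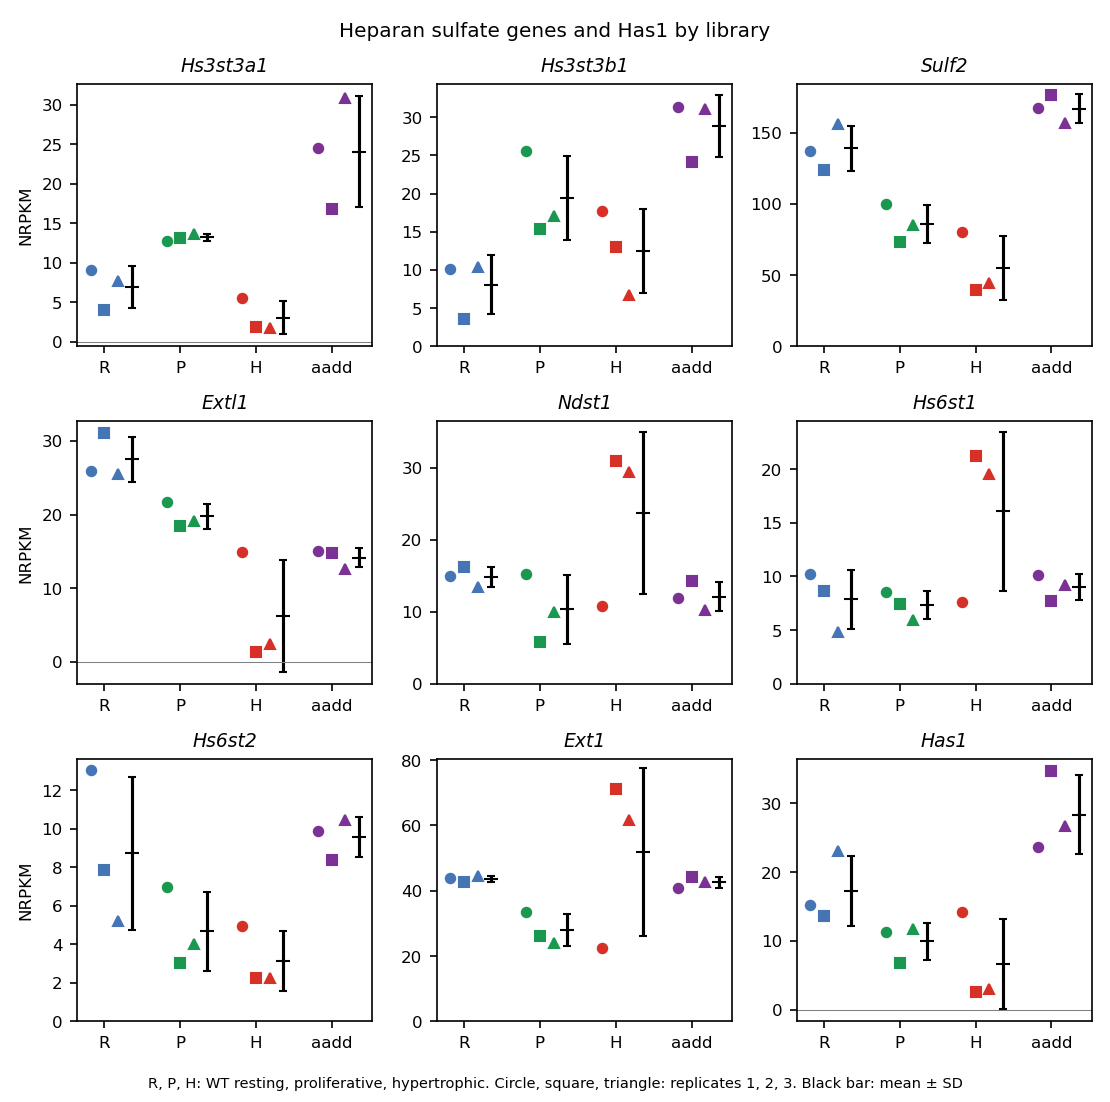
NRPKM of 8 heparan sulfate genes and *Has1* in each library (R, P and H for WT resting, proliferative and hypertrophic, and *aadd*). Circles, squares and triangles are replicates 1, 2 and 3, black bars the mean ± SD (n = 3). *Hs3st3a1* is at 16.8 to 30.9 NRPKM in *aadd* against at most 13.6 in WT libraries, and *Ndst1*, *Hs6st1* and *Ext1* are highest in hypertrophic replicates 2 and 3, where *Extl1* is at 1.28 and 2.40 NRPKM.

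Hyaluronan is made by *Has1*, *Has2* and *Has3*, of which *Has2* is needed for normal growth of the limb skeleton. *Has1* was at 15.2, 13.6 and 23 NRPKM in WT resting, 11.2, 6.83 and 11.7 in WT proliferative, 14.3, 2.60 and 3.05 in WT hypertrophic and 23.7, 34.7 and 26.7 in *aadd*. All *aadd* libraries were above all WT libraries, and all proliferative libraries below all resting ones. In *aadd* *Has1* rose by 0.73 on the log2 scale (SE 0.26, limma's Benjamini-Hochberg adjusted *P* = 0.429), lost without WT resting replicates 1 or 2 or *aadd* replicate 2 (log2 fold changes of 0.66, 0.58 and 0.58) or in a fit of all 12 libraries. From resting to hypertrophic cells, which overlapped through replicate 1, it fell by 1.77 on the log2 scale (SE 0.65, limma's Benjamini-Hochberg adjusted *P* = 0.154), lost without WT resting replicates 1, 2 or 3 or WT hypertrophic replicates 2 or 3 (log2 fold changes of -1.92 to -1.33) or with no filter, and without replicate 1 the log2 fold change was -2.54. *Has3* was at 6.32, 8.91 and 6.39 NRPKM in WT resting, 4.76, 4.24 and 4.17 in WT proliferative, 4.05, 3.49 and 3.78 in WT hypertrophic and 5.61, 4.80 and 3.28 in *aadd*. In *aadd* it fell by 0.66 on the log2 scale (SE 0.25, limma's Benjamini-Hochberg adjusted *P* = 0.467), lost without WT resting replicate 2 or *aadd* replicates 2 or 3 (log2 fold changes of -0.50, -0.72 and -0.45) or with a pseudocount of 1 or with no filter. *Has2* did not pass in any comparison and was at 17.2, 21.2 and 22.0 NRPKM in resting, 22.8, 26.0 and 29.6 in proliferative, 30.7, 7.74 and 8.25 in hypertrophic and 23.9, 17.8 and 25.0 in *aadd* libraries. Hypertrophic replicate 1 was the highest library and replicates 2 and 3 the lowest. Its antisense partner *Has2os*, at 2.72, 8.24 and 4.90 NRPKM in resting, 4.25, 7.89 and 10.2 in proliferative, 8.39, 1.52 and 1.98 in hypertrophic and 7.67, 5.52 and 4.73 in *aadd* libraries, had the same split of the hypertrophic group, and use of strand is not given in the sources used here, so reads of these overlapping genes cannot be told apart. The ratio of *Has2* to *Has1* was 1.13, 1.56 and 0.958 in resting, 2.03, 3.81 and 2.54 in proliferative, 2.15, 2.97 and 2.71 in hypertrophic and 1.01, 0.513 and 0.938 in *aadd* libraries, higher in every proliferative and hypertrophic library than in any resting one.

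Other carbohydrate sulfotransferases act on keratan sulfate or on other glycans, and 2 of these 7 genes passed the filter. *Chst1*, which sulfates galactose of keratan sulfate, was at 1.45, 1.07 and 3.03 NRPKM in WT resting, 12.5, 2.90 and 6.25 in WT proliferative, 10.7, 11.3 and 19.5 in WT hypertrophic and 0.794, 2.85 and 1.67 in *aadd*. Every hypertrophic library was above every resting and *aadd* library, while proliferative libraries ran from 2.90 to 12.5 NRPKM and overlapped the resting range. *Chst1* rose from resting to hypertrophic cells by 2.91 on the log2 scale (SE 0.43, limma's Benjamini-Hochberg adjusted *P* = 0.0179) and passed under every alternative, replicate 1 alone included (2.59). Over these alternatives its limma adjusted *P* (Benjamini-Hochberg) ran from 0.00899 to 0.141. Between resting and proliferative cells it rose by 1.80 on the log2 scale (SE 0.59, limma's Benjamini-Hochberg adjusted *P* = 0.223), lost without WT resting replicates 1 or 2 or WT proliferative replicate 1 (log2 fold changes of 1.70, 1.5 and 1.29). *Chst2*, an N-acetylglucosamine 6-O-sulfotransferase, was at 9.92, 8.08 and 6.27 NRPKM in resting, 11.7, 5.44 and 6.02 in proliferative, 6.85, 29.9 and 29.6 in hypertrophic and 9.40, 9.53 and 12.7 in *aadd* libraries, and did not pass. Its high values were those of hypertrophic replicates 2 and 3. *Chst4*, *Chst5*, *Chst8*, *Chst9* and *Chst10* were under the filter, with highest values of 0.349, 4.47, 0.768, 1.30 and 2.16 NRPKM. In the test with no filter, low genes besides *Chst13* also passed, with folds that depend on the pseudocount. *Hs3st6* and *Hs6st3* were higher in proliferative than in resting cells. *Chst8*, *Hs3st1*, *Hs3st5* and *Hs3st6* were higher and *Chst10* lower in hypertrophic than in resting cells. *B3gat2*, *Chst5* and *Hs3st1* were higher in *aadd*. In that order 7.42%, 12.4% and 6.04% of all genes passed.

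Seen over all 4 groups, 15 of the 43 genes had a Benjamini-Hochberg adjusted *P* under 0.05 in limma's F test, where 13.8% of all genes did. *Chst15* and *Chst3* had the lowest adjusted *P* values in that limma test, 0.000224 and 0.00187 (Benjamini-Hochberg), followed by *Hs3st3a1* with 0.00552 and *Sulf2* with 0.00583. The others were *Slc26a2*, *Chst1*, *Ust*, *Dse*, *Xylt1*, *Chsy3*, *Has1*, *Hs3st3b1*, *Extl1*, *Hs6st2* and *Chst11*, between 0.0142 and 0.0497 by limma with the same adjustment. This count changed with most of the libraries. It was 28 without hypertrophic replicate 1, 8 without replicate 2 and 4 without replicate 3 of that group, where 28.1%, 7.16% and 5.74% of all genes passed. It was 8 and 9 without resting replicate 2 or 3, 8 and 7 without proliferative replicate 2 or 3, and 7, 9 and 9 without *aadd* replicate 1, 2 or 3, in fits that passed 8.83% to 10.6% of all genes. With the replicate block it was 10, against 11.6% of all genes. In pairwise comparisons 20 of the 43 genes passed at least in 1 and 23 in none, where 21.5% of all genes passed at least in 1.

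The *aadd* comparison with WT resting libraries is the part of the design that bears on the 6 Hox genes. Its groups differ in genotype and also in what was captured, all zeugopod chondrocytes in *aadd* but only the resting compartment in WT. Genotype and captured region cannot be told apart in it. Among the 43 genes over the filter, those that rose were *Hs3st3b1*, *Hs3st3a1*, *Has1* and *Csgalnact2*. Those that fell were *Extl1*, *Csgalnact1*, *Xylt1*, *Chsy3*, *Chst12*, *Has3* and *Chst11*. By role, 1 of 5 linkage genes, 2 of 6 chondroitin chain genes and 2 of 7 genes of chondroitin and dermatan modification fell, 1 chondroitin chain gene and 2 of 9 heparan modifying genes rose, and no gene of precursor supply passed. Of all genes tested 2.78% fell and 3.78% rose, and role groups of this size are given as a description only. *Extl1* was the gene of the heparan chain that fell, and *Has1* and *Has3* moved in opposite directions. Groups did not overlap for 16 of the 43 genes, against 15.4% of all genes tested. All 11 were among those 16, but they were picked on the same values, so this is no further support for them. Of the 11, *Csgalnact2*, *Hs3st3a1* and *Hs3st3b1* passed under every alternative. Chondroitin 4-O-sulfotransferases *Chst11* and *Chst12* were lower and *Chst3* higher in all *aadd* than in all resting libraries, although *Chst3* did not reach the criteria. Summed perichondrium and tendon markers (10 of 10 found) were 439 to 695 NRPKM in *aadd* and 379 to 507 in resting libraries, and the part of such cells in the values was not tested.

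**Figure D5:**
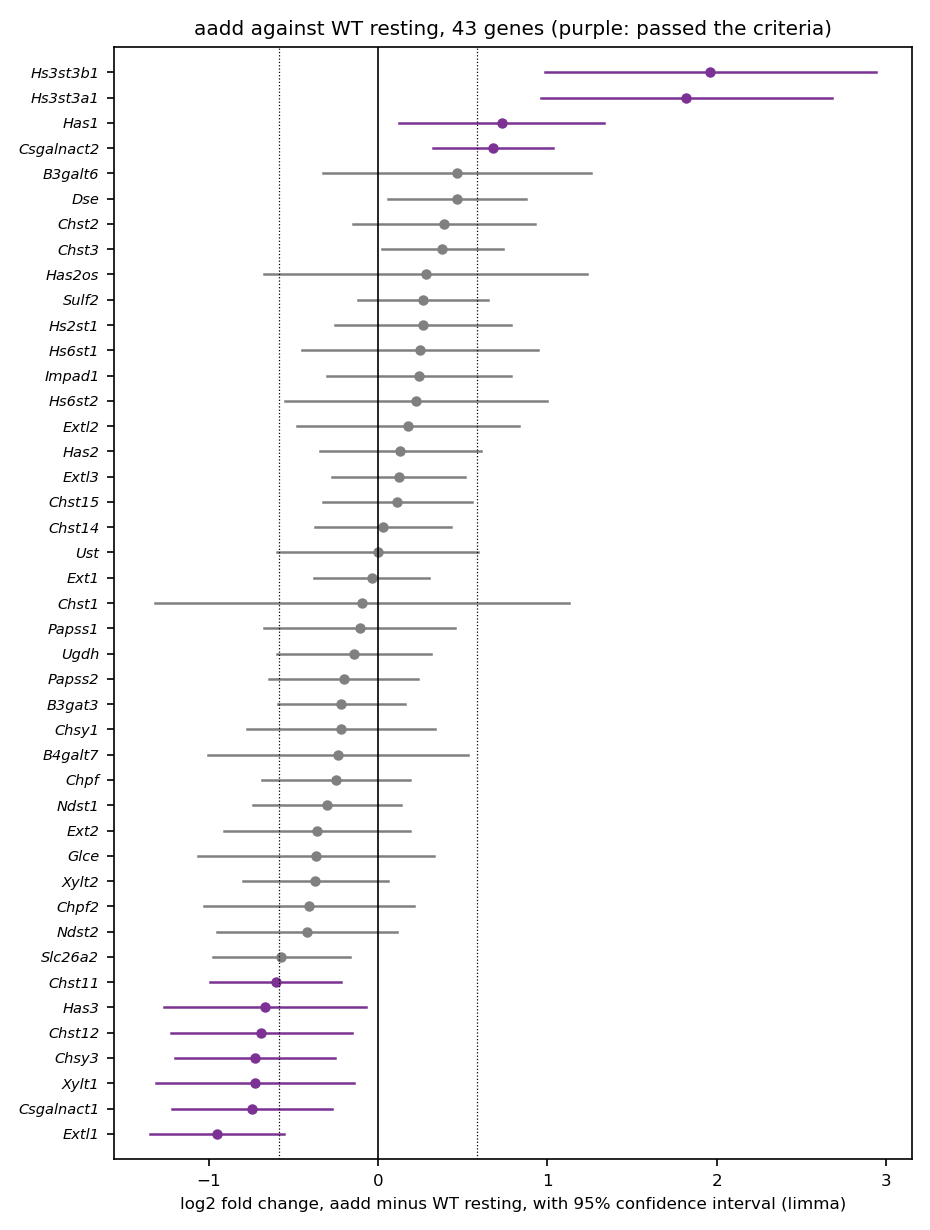
Log2 fold change of each of the 43 genes in *aadd* over WT resting libraries (n = 3 each) with its 95% confidence interval from limma, ordered by size. Purple marks the 11 genes that passed the criteria and dotted lines the fold change of 1.5. *Hs3st3b1* and *Hs3st3a1* stand at 1.96 and 1.82, and *Extl1* is lowest at -0.95.

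Genes of the same pathway outside the set were taken from lists of other pathway genes, heparan sulfate core proteins and breakdown genes. Of 16 other pathway genes tested, 2 fell from resting to proliferative, 4 from proliferative to hypertrophic and 5 from resting to hypertrophic cells, and 1 rose in *aadd*. Of all genes tested 2.97%, 4.34% and 7.2% fell in the first 3 comparisons and 3.78% rose in *aadd*. The gene that rose was *Sulf1*, the paralog of *Sulf2*, at 21.3, 12.9 and 28.9 NRPKM in WT resting, 9.84, 4.11 and 6.86 in WT proliferative, 6.61, 65.1 and 87.3 in WT hypertrophic and 67.0, 57.1 and 60.2 in *aadd*. Every *aadd* library was above every resting library, and *Sulf1* rose in *aadd* by 1.61 on the log2 scale (SE 0.30, limma's Benjamini-Hochberg adjusted *P* = 0.182). In proliferative against resting cells it fell by 1.60 on the log2 scale (SE 0.41, limma's Benjamini-Hochberg adjusted *P* = 0.159). Its hypertrophic libraries were split, replicates 2 and 3 being far above replicate 1. *Slc35d1*, a carrier of nucleotide sugars for chondroitin, was at 46.1, 54.3 and 53.3 NRPKM in WT resting, 49.9, 77.9 and 60.9 in WT proliferative, 46.2, 8.36 and 7.10 in WT hypertrophic and 38.0, 32.5 and 33.8 in *aadd*, with hypertrophic replicates 2 and 3 the lowest. *Slc35d1* fell by 2.13 on the log2 scale (SE 0.72, limma's Benjamini-Hochberg adjusted *P* = 0.21) from proliferative to hypertrophic cells, and *Gfpt2*, *Fam20b* and *Uxs1* fell by 2.49 (SE 0.79), 1.44 (SE 0.37) and 1.01 (SE 0.30) in the same comparison. Between resting and hypertrophic cells the sulfate transporter *Slc26a1* fell by 1.81 on the log2 scale (SE 0.35, limma's Benjamini-Hochberg adjusted *P* = 0.0377), and *Slc35d1*, *Gfpt2*, *Fam20b* and *Acpl2* also fell.

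Of 11 heparan sulfate core proteins tested, none passed from resting to proliferative in limma, where 3 rose and 2 fell from proliferative to hypertrophic, 3 rose and 1 fell from resting to hypertrophic, and 1 rose in *aadd*. Of all genes, 5.32% rose and 4.34% fell from proliferative to hypertrophic cells, from resting to hypertrophic cells 5.84% rose and 7.2% fell, and in *aadd* 3.78% rose. *Sdc2*, a transmembrane syndecan, was at 25.2, 28.4 and 31.6 NRPKM in WT resting, 53.6, 37.0 and 55.7 in WT proliferative, 53.5, 136 and 137 in WT hypertrophic and 41.7, 50.6 and 47.4 in *aadd*. All other groups lay above resting, and *Sdc2* rose by 0.71 on the log2 scale (SE 0.17, limma's Benjamini-Hochberg adjusted *P* = 0.253) in *aadd* and by 1.82 on the log2 scale (SE 0.39, limma's Benjamini-Hochberg adjusted *P* = 0.0495) from resting to hypertrophic cells. *Gpc1* and *Gpc4*, glypicans anchored in the membrane, rose from resting to hypertrophic cells by 2.18 on the log2 scale (SE 0.30, limma's Benjamini-Hochberg adjusted *P* = 0.0148) and 1.05 on the log2 scale (SE 0.19, limma's Benjamini-Hochberg adjusted *P* = 0.0321). *Gpc6* fell by 2.10 on the log2 scale (SE 0.41, limma's Benjamini-Hochberg adjusted *P* = 0.0383). Of 15 breakdown genes tested, *Hyal1*, a lysosomal hyaluronidase, fell by 1.16 on the log2 scale (SE 0.23, limma's Benjamini-Hochberg adjusted *P* = 0.104) from resting to proliferative cells and rose by 2.16 on the log2 scale (SE 0.40, limma's Benjamini-Hochberg adjusted *P* = 0.12) from proliferative to hypertrophic cells. *Cd44*, the hyaluronan receptor on this list, rose by 2.21 on the log2 scale (SE 0.82, limma's Benjamini-Hochberg adjusted *P* = 0.234) from proliferative to hypertrophic cells with values of 5.56, 2.95 and 8.05 and 6.60, 48.5 and 42.5 NRPKM, which overlapped. No breakdown gene passed the limma criteria from resting to hypertrophic cells or in *aadd*. The calls of genes outside the set were not repeated with libraries left out.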

How the data were processed

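RNA-Seq was measured in 12 libraries, 3 from each of 4 groups (WT resting, WT proliferative, WT hypertrophic and *aadd*). Reads of low quality, with several alignments or in duplicate were removed by the authors, who used mouse build mm10 (the submitters' processing notes name TopHat) and deposited RPKM values that they normalized further, called NRPKM. The kind of normalization and the use of strand are not given in the sources used here. No counts are in the table. Depth was read from the most frequent low value of 1719 short single-exon genes, taken as 1 read, and limits from it cover counting error only, with transcript lengths from GENCODE M21.

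The values were analysed as log2(NRPKM + 0.1) with limma 3.58.1 in R 4.3.3 (Python 3.11.15, numpy 2.4.6, pandas 2.3.3, matplotlib 3.10.9). Fold changes are on that scale, which understates those of low genes. The 10936 genes that reached 5 NRPKM in 3 or more libraries were kept. Pairwise comparisons used their 6 libraries with no covariate, an unadjusted *P* up to 0.05 and a fold change of at least 2 (WT) or 1.5 (*aadd*). The thresholds follow the study, which does not say whether its *P* was adjusted, used a moderated test in other software and added a test on pooled reads for *aadd*. Here Benjamini-Hochberg adjustment ran over all genes tested. Limma's moderated F test used all libraries. The procedure was tested on simulated data.

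Replicates carry numbers 1 to 3 in each group. Across genes, departures from the group mean were correlated between resting and proliferative WT libraries of equal number, with *r* of 0.281, 0.179 and 0.198. Resting and *aadd* libraries numbered 2, which differ in genotype, reached 0.28, and libraries of unequal number were not compared. These values therefore do not establish a pairing. The study sequenced 3 independent sets of compartments but does not say whether the numbers mark the sets. The main fits leave the number out. The fit with the number as a block is given where it changes a result.

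The members and lists were chosen with earlier results of these data known. All members may be named. Those that passed in a pairwise comparison or the F test are given with all values, others by ranges or means, and those under the filter by their highest value, except where a group comparison of them is described. Outside the set, listed genes that passed were eligible to be named. *Ext1*, *Ext2*, *Ndst1*, *Hs6st1*, *Chsy1*, *Has2*, *Has2os*, *Chst2*, *Chst13*, *Chst7*, *Hs3st6*, *Ugdh*, *Papss1*, *Impad1* and *Ndst2* were given by library after their values were seen, and the motifs of core promoter elements and of the cAMP response element were added after the promoters were seen. Marker lists not described with the results were erythroid (8 of 10 found, summed NRPKM 64.6 to 86.7 in resting, 63.3 to 166 in proliferative, 129 to 482 in hypertrophic and 91.8 to 217 in *aadd*) and skeletal muscle (10 of 10, 4.67 to 11.0, 5.61 to 43.6, 8.72 to 17.2 and 5.35 to 22.8). Perichondrium and tendon markers were 389 to 651 in proliferative and 413 to 592 in hypertrophic libraries.

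Alternatives changed the pseudocount to 1, dropped the filter or took it over the libraries compared, scaled by quantile normalization or by median ratios, fitted all 12 libraries together, added the replicate block, or left out each library in turn. Hypertrophic replicate 1 alone against the other group, whose spread it is then assumed to share, was added after seeing the data.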

Additional observations from a re-analysis of the deposited data

How the results depend on the processing

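No result reversed under any alternative. Of the 39 calls of single genes, 10 passed under all alternatives and 29 failed to pass under at least 1. From resting to proliferative cells the count of 5 was 8 with no filter and 2 to 6 with a library left out. From proliferative to hypertrophic cells the count of 10 was 5 to 21 with a library left out and 3 with hypertrophic replicate 1 alone, an alternative chosen after seeing the data. From resting to hypertrophic cells the count of 13 was 6 to 20 with a library left out and 3 with hypertrophic replicate 1 alone. In *aadd* the count of 11 was 6 with all 12 libraries in one fit, which takes its error from the hypertrophic group too, and 7 to 11 with a library left out. The F test count of 15 was 8 with no filter and 4 to 28 with a library left out. Without hypertrophic replicate 1 the remaining pair is close together, and the cause of the higher counts was not tested. A fit with the replicate block gave 5, 10, 12, 11 and 10 genes in the same order of comparisons, and 0 genes from resting to proliferative and 2 from resting to hypertrophic cells had an adjusted *P* under 0.05, against 2 and 4 without it. From resting to hypertrophic cells *Chst3* and *Sulf2* were the genes lost, with adjusted *P* of 0.0855 and 0.0941 by limma (Benjamini-Hochberg). By the criteria the block changed the call of *Chst11* in that comparison and no other call. Outside WT resting with WT proliferative, same-numbered libraries did not all correlate over 0.1 (*r* of 0.066, 0.063 and 0.111 for resting with hypertrophic, and 0.051, 0.28 and -0.097 for resting with *aadd*), so the block there joins libraries that share a number. Only 3 libraries per group and 1890000 to 3240000 reads limit what could be seen in genes near 5 NRPKM.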
